A study of Homo sapiens with 4 samples.

Results

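The C/D box small nucleolar RNAs (snoRNAs) were described across the 4 conditions of an RNA-seq experiment in MDA-MB-231 cells, an established human triple-negative breast cancer cell line with mesenchymal features. The experiment asked what knockdown of CTGF, a matricellular protein encoded by CCN2, and the coffee diterpene kahweol do to the transcripts of these cells. Its 4 groups were cells transfected with CTGF siRNA and then given 50 µM kahweol for 48 h (siCTGF+kahweol), cells transfected with control siRNA and given the same treatment (siControl+kahweol), cells with CTGF siRNA alone (siCTGF) and cells with control siRNA alone (siControl). Every group was transfected, CTGF was targeted with 1 siRNA sequence, set against 1 control siRNA, the kahweol stock was in DMSO, and no vehicle was named for the untreated cells. Cells were treated in serum-free medium. Each group was 1 library of rRNA-depleted total RNA, so no difference between 2 groups could be set against a spread between replicates.

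The members were chosen by their names and by measured values: genes whose symbol starts with SNORD and whose count averaged at least 10 over the 4 libraries. That gave 107 of 359 SNORD genes, in a table of 35993 genes of which 16599 averaged at least 10. The average runs over both treated and untreated libraries, so the level of a member was used in choosing it and its differences between conditions were not used directly. Of the 252 SNORD genes below the threshold, 153 had a count of 0 in every library and 99 had a count in at least 1. Just inside stood SNORD142 with an average of 10.25 and SNORD11 and SNORD1B with 10.0, and just outside stood SNORD38A with 9.75, SNORD159 with 9.5 and SNORD62A with 9.25. All 107 members had a count above 0 in every library.

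C/D box snoRNAs are short nucleolar RNAs named after box C near the 5′ end and box D near the 3′ end, which bind a core of proteins that includes the methyltransferase fibrillarin. Most of them pair with ribosomal RNA and direct methylation of single riboses, some pair with the spliceosomal U6 snRNA or with tRNA, and a few, above all U3, act in the cutting of the ribosomal RNA precursor. U3 and U13 are transcribed from their own promoters, whereas nearly all others are cut out of introns of host genes, many of which encode ribosomal proteins or are spliced noncoding RNAs.

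Sequences of 84 of the 107 members were found by symbol in the GENCODE 29 transcripts (GRCh38), 46 of them with the same length as in the deposited GRCh37 annotation. The letters TGATG or GATGA, the core of box C, were searched on the transcript strand in the first 25 bases and CTGA, box D, in the last 25, where an overlap of TGATG with GATGA was taken as the 6 letters TGATGA. Both boxes were found in 74 of the 79 matched members other than U3 (93.7%), against 3 of 142 H/ACA snoRNAs of the same annotation (2.11%). The sequences shown are those of the most abundant member, of members that passed the test for kahweol below and of SNORD49A, which differed little between conditions. Capitals mark the boxes, T stands for U, and in SNORD3A the internal TGATGA is also marked.
SNORD3A (chr17:19188016-19188232, plus strand): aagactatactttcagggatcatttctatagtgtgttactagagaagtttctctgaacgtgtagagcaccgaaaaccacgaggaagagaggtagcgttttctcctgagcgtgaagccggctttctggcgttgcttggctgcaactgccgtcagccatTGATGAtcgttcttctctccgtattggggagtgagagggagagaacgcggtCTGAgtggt
SNORD17 (chr20:17962710-17962946, minus strand): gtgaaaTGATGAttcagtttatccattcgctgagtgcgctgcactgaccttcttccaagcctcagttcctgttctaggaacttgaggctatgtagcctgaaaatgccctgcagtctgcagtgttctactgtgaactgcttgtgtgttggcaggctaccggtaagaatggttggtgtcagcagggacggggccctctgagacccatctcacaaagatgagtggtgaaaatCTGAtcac
SNORD10 (chr17:7576811-7576952, plus strand): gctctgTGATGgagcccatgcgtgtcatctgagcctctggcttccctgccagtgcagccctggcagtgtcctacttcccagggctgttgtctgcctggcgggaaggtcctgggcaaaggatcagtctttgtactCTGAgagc
SNORD16 (chr15:66502812-66502910, minus strand): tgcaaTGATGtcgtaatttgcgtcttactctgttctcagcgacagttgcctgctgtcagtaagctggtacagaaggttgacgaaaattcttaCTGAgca
SNORD12B (chr20:49280319-49280409, plus strand): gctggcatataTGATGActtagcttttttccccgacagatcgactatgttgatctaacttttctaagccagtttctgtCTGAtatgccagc
SNORD97 (chr11:10801467-10801608, minus strand): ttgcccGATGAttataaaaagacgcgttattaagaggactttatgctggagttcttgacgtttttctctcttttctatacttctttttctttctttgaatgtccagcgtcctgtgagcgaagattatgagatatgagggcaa
SNORD57 (chr20:2656939-2657010, plus strand): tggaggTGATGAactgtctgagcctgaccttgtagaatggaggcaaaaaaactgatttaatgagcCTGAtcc
SNORD94 (chr2:86135870-86136006, plus strand): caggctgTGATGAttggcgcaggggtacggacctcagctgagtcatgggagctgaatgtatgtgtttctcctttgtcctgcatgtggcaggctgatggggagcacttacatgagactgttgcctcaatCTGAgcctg
SNORD32A (chr19:49489965-49490048, plus strand): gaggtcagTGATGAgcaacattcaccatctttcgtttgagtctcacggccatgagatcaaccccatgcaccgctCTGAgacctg
SNORD14C (chr11:123059335-123059422, minus strand): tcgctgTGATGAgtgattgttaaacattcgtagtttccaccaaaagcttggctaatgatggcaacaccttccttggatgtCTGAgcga
SNORD14D (chr11:123058909-123058995, minus strand): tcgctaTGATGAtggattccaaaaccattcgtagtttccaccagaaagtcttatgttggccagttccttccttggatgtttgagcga
SNORD49A (chr17:16440036-16440106, plus strand): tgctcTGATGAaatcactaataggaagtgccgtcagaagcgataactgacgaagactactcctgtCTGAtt
SNORD3A is U3. SNORD17 guides large subunit rRNA, SNORD10 and SNORD94 guide U6, SNORD16 and SNORD57 guide small subunit rRNA, SNORD97 guides the elongator methionine tRNA, and SNORD14C and SNORD14D are copies of U14, which in yeast is needed to make small subunit rRNA. No CTGA lay in the last 25 bases of SNORD97 or SNORD14D.

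The 5 U3 genes are nearly the same sequence. Counted from the 5′ end, SNORD3B-1 and SNORD3B-2 differed from SNORD3A by A78C alone and were identical to each other over 217 of 217 bases, SNORD3C differed from SNORD3A by G108A, and SNORD3D by A4G, C53T and A78C. SNORD3B-2 was nevertheless given 7469, 6954, 5566 and 6308 counts in siCTGF+kahweol, siControl+kahweol, siCTGF and siControl cells, against 3699, 3904, 2880 and 2714 counts for its identical copy SNORD3B-1. How reads were split among these copies is therefore uncertain, and the sum over the 5 does not depend on it. Among members other than U3 that share a number, 28 pairs had sequences, with identities of 60.2% to 88.3%.

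The 107 members were 48 to 237 nt long with a median of 77.0 nt, and 86 of them were 100 nt or shorter. By the deposited coordinates 100 members lay within another gene on the same strand, in 47 host genes. Protein-coding hosts numbered 36 and held 67 members, 30 of them in 13 ribosomal protein genes, and 11 noncoding hosts held 33. Of the 72 members whose place could be read in the GENCODE annotation, 21 lay in an intron of every transcript that spans them, and 51 lay in an intron of some transcripts and overlapped an exon of others. The 7 members in no other gene were the 5 U3 copies, SNORD13 and SNORD89.

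The libraries held 44781516 to 59129784 counts. CCN2 had 31.8 and 63.6 CPM (counts scaled to library size, with TMM factors) in siCTGF+kahweol and siCTGF cells, against 186 and 159 CPM in siControl+kahweol and siControl cells, so the targeted transcript was lower in both CTGF siRNA libraries. VIM, a mesenchymal marker, had 2548 to 3254 CPM, whereas the hormone receptor genes ESR1 and PGR had at most 0.592 CPM and the leukocyte markers PTPRC and CD3E at most 0.139 CPM. Of the other markers read, 2 of 3 fibroblast genes, 2 of 2 endothelial genes and 2 of 2 epithelial keratins averaged at least 10 counts. Across all genes the TMM scaling used here and scaling by total counts differed by a shift of the median log2 fold change of -0.15 and -0.13 in the kahweol comparisons within siCTGF and siControl cells. In bulk RNA, fewer cells carrying a transcript and less of it per cell cannot be told apart.

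C/D box snoRNAs took a larger share of all counts in both kahweol libraries. The 107 members together took 0.645% of counts in siCTGF+kahweol cells (95% exact binomial interval 0.642% to 0.648%) and 0.574% in siControl+kahweol cells (0.570% to 0.577%), against 0.426% in siCTGF cells (0.423% to 0.428%) and 0.489% in siControl cells (0.486% to 0.491%). The intervals take 2 reads as 1 fragment and cover counting error only, so they say nothing of how replicate cultures would differ. U3 made up 97.5%, 97.9%, 97.9% and 98.2% of these counts in the same order of libraries, and SNORD3A alone 89.9%, 89.1%, 89.9% and 91.7%. The share over all members is thus a measure of U3.

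**Figure D1:**
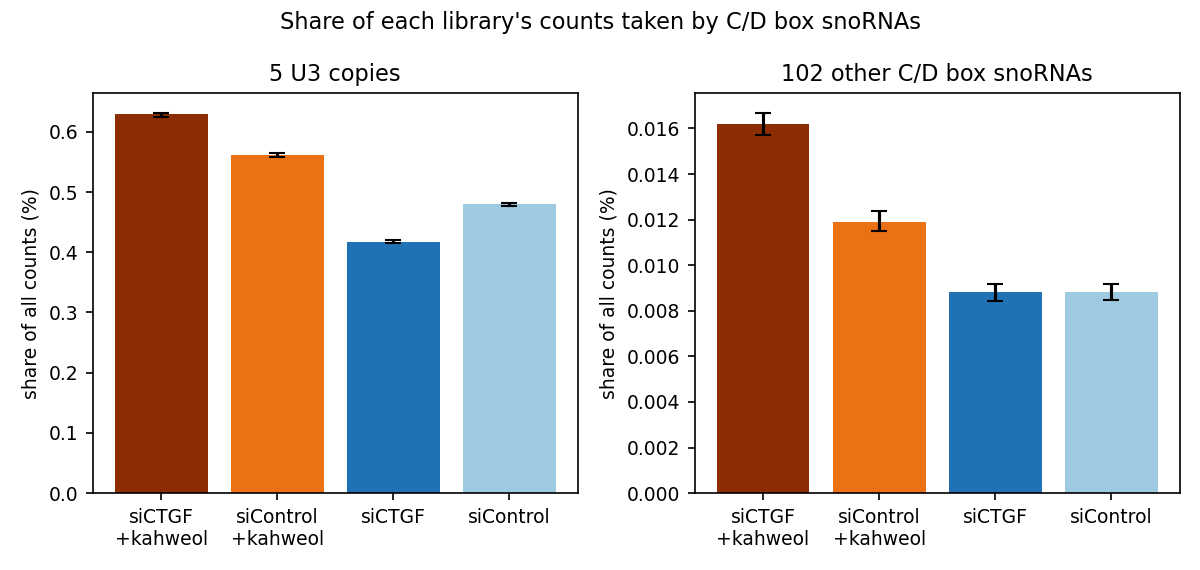
Share of each library's counts (percent, linear axes from 0) taken by the 5 U3 copies (left) and by the 102 other C/D box snoRNAs (right), 1 library per bar, with 95% exact binomial intervals of counting error. U3 took 0.629% and 0.562% of counts in the kahweol libraries against 0.417% and 0.480% in the untreated ones, and the other members 0.0162% and 0.0119% against 0.00881% and 0.00882%.

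Without U3 the picture kept its direction at a far lower level. The other 102 members took 0.0162% of counts in siCTGF+kahweol cells (0.0157% to 0.0167%) and 0.0119% in siControl+kahweol cells (0.0115% to 0.0124%), against 0.00881% in siCTGF cells (0.00845% to 0.00917%) and 0.00882% in siControl cells (0.00849% to 0.00917%). The 2 untreated libraries had overlapping intervals and both lay below the kahweol libraries, of which siCTGF+kahweol was the higher. On the TMM scale the summed count of these 102 was higher with kahweol by 1.03 on the log2 scale in siCTGF cells (0.95 to 1.11) and by 0.57 in siControl cells (0.49 to 0.65). Between the 2 siRNAs it differed by 0.48 with kahweol (0.40 to 0.55) and by 0.01 without it (-0.07 to 0.10). The interaction of siRNA and kahweol has no residual degree of freedom here and was not tested.

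U3 had the highest level of the C/D box snoRNAs as measured. It is 217 nt long and 100 of the 107 members are 200 nt or shorter, a length that column kits for RNA can recover poorly. The labels name the RNeasy Mini kit and the study's methods another, so levels are compared here as sequenced, and the part of the extraction in them was not tested. Per length, SNORD3A had 47077, 42987, 33526 and 40299 TPM, a scale on which each library's transcripts sum to the same total, in siCTGF+kahweol, siControl+kahweol, siCTGF and siControl cells. The 102 members other than U3 had medians of 18.5, 13.1, 9.88 and 9.52 TPM in the same libraries, and their highest values were 158, 128, 118 and 119 TPM. In CPM, SNORD3A stood at 6169 in siCTGF+kahweol and 3666 in siCTGF cells, and at 5299 in siControl+kahweol and 4238 in siControl cells. Its log2 fold change with kahweol was 0.75 in siCTGF cells (0.74 to 0.76) and 0.32 in siControl cells (0.31 to 0.33). The CTGF siRNA went with a higher SNORD3A in kahweol-treated cells (0.22) and a lower one in untreated cells (-0.21).

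The 4 other U3 copies together had 524 and 523 CPM in siCTGF+kahweol and siControl+kahweol cells against 328 and 302 CPM in siCTGF and siControl cells. Their log2 fold change with kahweol was 0.67 in siCTGF cells (0.63 to 0.71) and 0.79 in siControl cells (0.75 to 0.83), so here, unlike for SNORD3A, the larger value belonged to siControl cells. The split of reads among the U3 copies is uncertain, so a difference between copies cannot be read from this contrast. Summed over all 5 copies, the value was 0.74 in siCTGF cells and 0.36 in siControl cells. U13 (SNORD13), which is needed for acetylation of small subunit rRNA, had only 0.428, 0.208, 0.333 and 0.320 CPM, and its kahweol log2 fold change was 0.33 in siCTGF cells (interval -1.02 to 1.91) and -0.54 in siControl cells (interval -2.92 to 1.00). U8 (SNORD118), which acts in maturation of large subunit rRNA, had a count of 1 in every library, at 0.00685 to 0.0151 TPM, and was no member. Deposited counts were rounded up, so its count of 1 can stand for less than 1. At this depth a difference in U13 was not detectable.

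Most members were higher with kahweol than without it in both siRNA backgrounds. In siCTGF cells 92 of the 107 exceeded a fold change of 1.3 and 0 fell below 0.7, the fold limits of the study, where 28.4% and 24.2% of all 16599 genes did so. In siControl cells 70 exceeded 1.3 and 8 were below 0.7, where the shares of all genes were 28.1% and 26.3%. The members' median log2 fold change was 0.97 in siCTGF cells and 0.60 in siControl cells, against 0.00 and -0.02 for all genes. Of the 107, 8 averaged under 10 counts in the untreated libraries and were members only through the kahweol libraries, and 3 only through the untreated ones. Over the 100 SNORD genes that averaged 10 or more in the untreated libraries, a choice made after seeing the data, 86 exceeded 1.3 in siCTGF cells and 62 in siControl cells, with medians of 0.96 and 0.55. With scaling by total counts the medians over the 107 were 0.83 and 0.47, and 22.0% of all genes exceeded 1.3 and 31.6% were below 0.7 in siControl cells. Over all genes with a mean count of 10 to 200, a range set after seeing the data that holds most members, 34.5% exceeded 1.3 and 33.0% were below 0.7 in siCTGF cells, and 31.2% and 38.6% in siControl cells.

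Both kahweol libraries lay above both untreated libraries for 81 members and below them for 0, whereas 36.0% of all genes lay above and 37.1% below. The siCTGF+kahweol library was the highest of the 4 for 86 members, siControl+kahweol for 16, siCTGF for SNORD87 and SNORD142, and siControl for SNORD134, SNORD48 and SNORD11. For single members counting error was wide: the interval of the kahweol fold change lay above 0 for 59 members in siCTGF cells and for 36 in siControl cells, and below 0 for none. Neither these counts nor those of the highest library were taken over all genes, so they describe the members alone. The 2 kahweol fold changes share no library, and the count of members over 1.3 in both was 67, where 20.7% of all genes were.

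**Figure D2:**
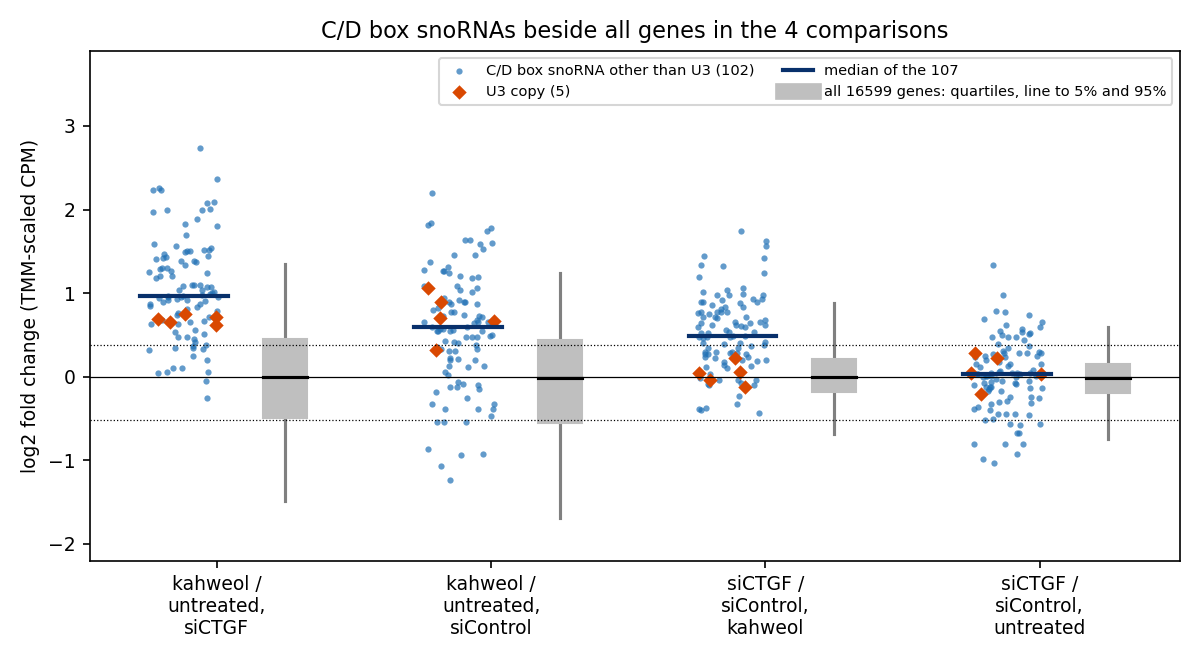
Log2 fold change (TMM-scaled CPM, vertical axis) of the 107 C/D box snoRNAs in the 4 comparisons of single libraries, with U3 copies as diamonds, beside the quartiles and the 5% to 95% range of all 16599 genes. Dotted lines mark fold changes of 1.3 and 0.7. The members' medians were 0.97 and 0.60 for kahweol in siCTGF and siControl cells and 0.49 and 0.03 for siCTGF in kahweol-treated and untreated cells.

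For the CTGF siRNA, members differed little in untreated cells and were mostly higher in kahweol-treated cells. In kahweol-treated cells 64 of 107 exceeded 1.3 and 0 were below 0.7, where 14.7% and 7.83% of all genes did so, and the members' median was 0.49 against 0.00 for all genes. In untreated cells 20 exceeded 1.3 and 12 were below 0.7, where 9.63% and 8.99% of all genes did so, and the median was 0.03 against -0.01. Among all genes with a mean count of 10 to 200 those shares were 33.3% and 20.5% in kahweol-treated cells and 21.6% and 24.3% in untreated cells, so in untreated cells the members' counts were at or under those of other thinly counted genes. Each siRNA comparison shares a library with each kahweol comparison, and the values are given side by side only.

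The 2 by 2 design allows 1 test, an additive fit in which the 2 kahweol libraries are set against the 2 untreated ones with the siRNA as covariate, at 1 residual degree of freedom and with any interaction taken as noise. By the quasi-likelihood test of edgeR, with p-values adjusted over all 16599 genes by the Benjamini-Hochberg method, 19 members rose with kahweol and 0 fell, where 22.9% of all genes rose and 23.6% fell. The share of members that rose was below that of all genes, and none of them fell. At an unadjusted p under 0.05, 33 members were higher and 0 lower, against 26.2% and 27.3% of all genes. DESeq2 called 10 members higher and 0 lower, where 19.8% and 19.6% of all genes were. The numbers from limma-voom were 26 and 0, where 23.9% and 24.5% of all genes were called, so the 26 were near that share. All 19 had both kahweol libraries above both untreated ones, and siCTGF+kahweol was the highest library for 15. They were picked by a test on these same libraries, so this separation largely follows from the choice and adds no support.

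All 5 U3 copies were among the 19, but the split of reads among them is uncertain, so they are not 5 separate results. SNORD3A rose by a log2 fold change of 0.54 ± 0.09 (SE, adjusted p = 0.00250), SNORD3B-2 by 0.69 ± 0.08 (adjusted p = 0.000413), SNORD3D by 0.70 ± 0.08 (adjusted p = 0.000435), SNORD3C by 0.75 ± 0.10 (adjusted p = 0.000794) and SNORD3B-1 by 0.85 ± 0.12 (adjusted p = 0.000985). The other long members followed. SNORD17, in an intron of the sorting nexin gene SNX5, had 21.8 and 17.2 CPM in siCTGF+kahweol and siControl+kahweol cells against 14.1 and 13.7 CPM in siCTGF and siControl cells, a rise of 0.48 ± 0.13 (adjusted p = 0.0175). SNORD133, within LARP4, had 20.6 and 14.3 CPM against 8.70 and 11.4 CPM, a rise of 0.78 ± 0.21 (adjusted p = 0.0185).

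SNORD10 and SNORD94 guide U6, as does SNORD67. SNORD10, in the translation initiation factor gene EIF4A1, had 193 and 159 counts in siCTGF+kahweol and siControl+kahweol cells against 81 and 72 in siCTGF and siControl cells, and rose by 1.60 ± 0.31 (adjusted p = 0.00420). SNORD94, in PTCD3, had 54 and 43 counts against 22 and 20, and rose by 1.60 ± 0.56 (adjusted p = 0.0472). The kahweol and untreated libraries did not overlap for either, as for all 19 picked by the test. SNORD67, in CKAP5, had 12 and 14 counts against 12 and 4 (1.20, adjusted p = 0.332). It was a member only through the kahweol libraries, so its difference is a description.

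Among guides for ribosomal RNA, SNORD16, in the ribosomal protein gene RPL4, had 105 and 77 counts in the kahweol libraries, siCTGF first, against 23 and 34 in siCTGF and siControl cells, and rose by 2.08 ± 0.47 (adjusted p = 0.00810). SNORD57, in NOP56, had 64 and 39 counts against 18 and 14, and rose by 2.06 ± 0.58 (adjusted p = 0.0211). SNORD12B, in the noncoding ZFAS1, had 132 and 83 counts against 64 and 45 (1.37 ± 0.38, adjusted p = 0.0193). In each of these the siCTGF+kahweol library was the highest. SNORD32A, in RPL13A, had 84 and 79 counts against 55 and 36 (1.27 ± 0.44, adjusted p = 0.0478), and SNORD74, in the noncoding GAS5, had 96 and 100 against 61 and 59 (1.12 ± 0.38, adjusted p = 0.0454).

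The U14 copies SNORD14C and SNORD14D, both in introns of the heat shock cognate gene HSPA8, had 93 and 82 counts in siCTGF+kahweol cells, 50 and 48 in siControl+kahweol cells, 25 and 24 in siCTGF cells and 40 and 35 in siControl cells. They rose by 1.51 ± 0.53 (adjusted p = 0.0491) and 1.52 ± 0.53 (adjusted p = 0.0470), close to the threshold. SNORD97, in EIF4G2, had 67 and 47 counts in the kahweol libraries against 19 and 18 in the untreated ones, and rose by 2.00 ± 0.54 (adjusted p = 0.0186). SNORD139, in RPL3, had 60 and 39 against 19 and 22 (1.65 ± 0.57, adjusted p = 0.0461). SNORD136, in GNL3, had 22 and 22 counts against 4 and 5. It averaged 4.5 counts in the untreated libraries and was a member only through the kahweol libraries, so its difference (2.67 ± 0.85, adjusted p = 0.0339) is a description, and 18 of the 19 do not rest on that choice.

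**Figure D3:**
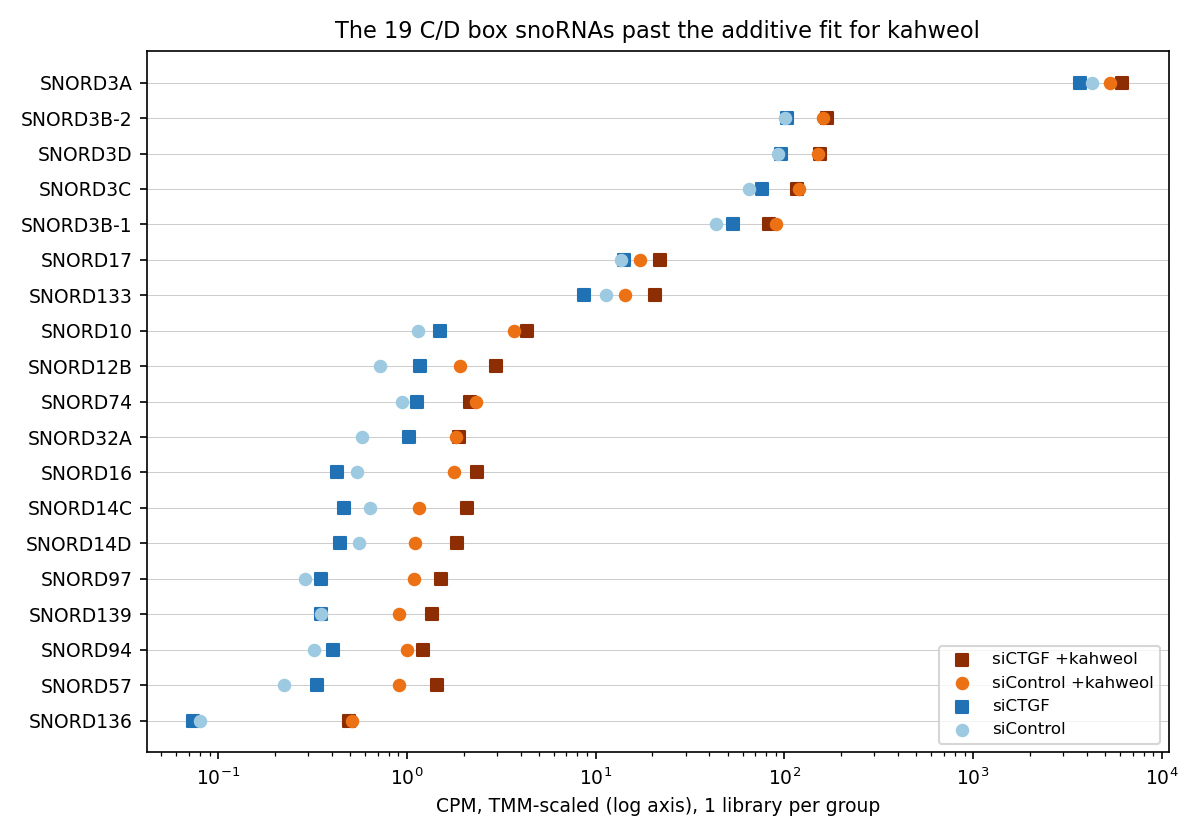
CPM (log axis) of the 19 C/D box snoRNAs that rose with kahweol in the additive fit, 1 point per library, kahweol libraries in brown and orange and untreated ones in blue. In every row both kahweol points lie to the right of both untreated points, as for SNORD94 at 1.22 and 0.996 CPM against 0.406 and 0.320 CPM and SNORD3A at 6169 and 5299 CPM against 3666 and 4238 CPM. SNORD136, the thinnest, was a member only through its kahweol libraries. The 19 were picked by a test on these same libraries, so their separation is a description.

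Several abundant guides had higher values with kahweol that did not pass this test. SNORD47, which guides large subunit rRNA, had 5.13 and 3.84 CPM in siCTGF+kahweol and siControl+kahweol cells against 3.05 and 2.75 CPM in siCTGF and siControl cells (0.62, adjusted p = 0.0903). SNORD76 had 4.30 and 3.36 CPM against 2.25 and 2.21 CPM (0.77, adjusted p = 0.0627), and SNORD29 had 4.17 and 2.96 CPM against 2.29 and 2.38 CPM (0.59, adjusted p = 0.152). SNORD49A had nearly equal values throughout, 1.87, 1.83, 1.81 and 1.66 CPM (0.09, adjusted p = 0.853). SNORD31, in SNHG1, had 1.58 CPM in siCTGF+kahweol and 0.979 CPM in siCTGF cells, but 0.556 CPM in siControl+kahweol and 1.04 CPM in siControl cells, and was the only member averaging 50 counts or more under the fold limit of 0.7 in any comparison.

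No member passed the additive fit for the CTGF siRNA in either direction, where 0.0663% of all genes rose and 0.0602% fell. At an unadjusted p under 0.05, 0 members differed, against 5.13% of all genes higher and 4.78% lower. DESeq2 and limma-voom also called 0 members. Of the genes they tested, 0.562% and 0.193% rose and 0.496% and 0.169% fell. The lowest adjusted p was that of SNORD12B, 0.626, with 2.97 and 1.18 CPM in siCTGF+kahweol and siCTGF cells against 1.92 and 0.720 CPM in siControl+kahweol and siControl cells. In kahweol-treated cells the largest differences with the CTGF siRNA, among members averaging 50 counts or more, were in 2 neighbours in SNHG1, SNORD31 (1.44, 0.52 to 2.59) and SNORD30 (1.32, 0.57 to 2.24). In untreated cells SNORD30 had 1.07 CPM with the CTGF siRNA and 0.928 CPM with the control siRNA, a difference of 0.20 (-0.59 to 1.00).

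The host genes of the members were themselves mostly higher with kahweol. Of 47 hosts 31 rose in the additive fit, 5 fell and 11 did not pass, where 22.9% of all genes rose and 23.6% fell, and their median log2 fold change was 0.31 in siCTGF cells and 0.30 in siControl cells. A snoRNA's fold change less that of its host had a median over 100 members of 0.59 in siCTGF cells (quartiles 0.14 and 1.15), with 83 above their host, and of 0.01 in siControl cells (-0.38 and 0.63), with 51 above. Members of 1 host are not independent. The 100 include members, SNORD136 among them, that passed the count threshold only through the kahweol libraries. Reads from unspliced host RNA that cross a snoRNA are counted toward it as well, and their part in these values was not tested. For the CTGF siRNA the medians of that difference were 0.29 in kahweol-treated and -0.15 in untreated cells.

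A set of 12 hosts held at least 3 members each. GAS5, a growth-arrest noncoding RNA whose introns carried 10 members, had 206 and 149 CPM in siCTGF+kahweol and siControl+kahweol cells against 111 and 80.8 CPM in siCTGF and siControl cells. Its 10 snoRNAs summed to 27.2 and 19.2 CPM against 13.7 and 12.1 CPM, which is 13.2 and 12.9 against 12.3 and 15.0 counts per 100 counts of the host. The snoRNAs and the host thus differed by similar amounts. SNHG1, with 7 members, had 217 and 175 CPM against 101 and 81.8 CPM, while its snoRNAs summed to 17.7 and 11.6 CPM against 9.16 and 8.91 CPM. In siControl cells this sum was higher with kahweol by 0.38 (0.13 to 0.63), less than the host's 1.10, and in siCTGF cells by 0.95 (0.71 to 1.18), beside 1.10 for the host.

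Hosts that encode ribosomal and nucleolar proteins were mixed. GNL3, which encodes nucleostemin, had 277 and 276 CPM in the kahweol libraries, siCTGF first, against 276 and 249 CPM, whereas its 5 snoRNAs summed to 3.38 and 2.62 CPM against 1.29 and 1.22 CPM. That sum holds SNORD136, with 22 and 22 counts against 4 and 5, which was a member only through the kahweol libraries. RPL13A, with 4 members, differed by 0.23 in siCTGF and 0.27 in siControl cells, and its snoRNAs by 1.41 (0.94 to 1.91) and 1.12 (0.59 to 1.65). RPL4, with 3, differed by 0.24 and 0.33, and its snoRNAs by 1.90 (1.23 to 2.64) and 1.35 (0.65 to 2.03). For RPL7A, with 4, the host values were 0.26 and 0.30 and those of its snoRNAs 0.84 (0.40 to 1.28) and 0.65 (0.20 to 1.11). RPL3, with 3, gave 0.17 and 0.28 for the host and 1.27 (0.65 to 1.95) and 0.15 (-0.55 to 0.77) for its snoRNAs, which in siControl cells were thus no higher than the host. Among hosts of 2 members, the snoRNAs of RPL23A differed by 1.24 (0.29 to 2.24) and 0.01 (-1.07 to 0.99) beside 0.32 and 0.28 for the host, and those of NOP58 by 0.09 (-1.35 to 1.36) and -0.56 (-1.90 to 0.84) beside 0.33 and 0.37. HSPA8 was itself higher, by 1.16 in siCTGF and 1.41 in siControl cells, and its U14 copies by 2.3 (1.70 to 2.94) and 0.86 (0.26 to 1.44). Of the 12 hosts, the interval of the snoRNA sum lay above that of the host for 7 in siCTGF cells and 3 in siControl cells, and below it for 0 and 1, counting error only. GNL3, whose sum holds SNORD136, was among both the 7 and the 3.

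**Figure D4:**
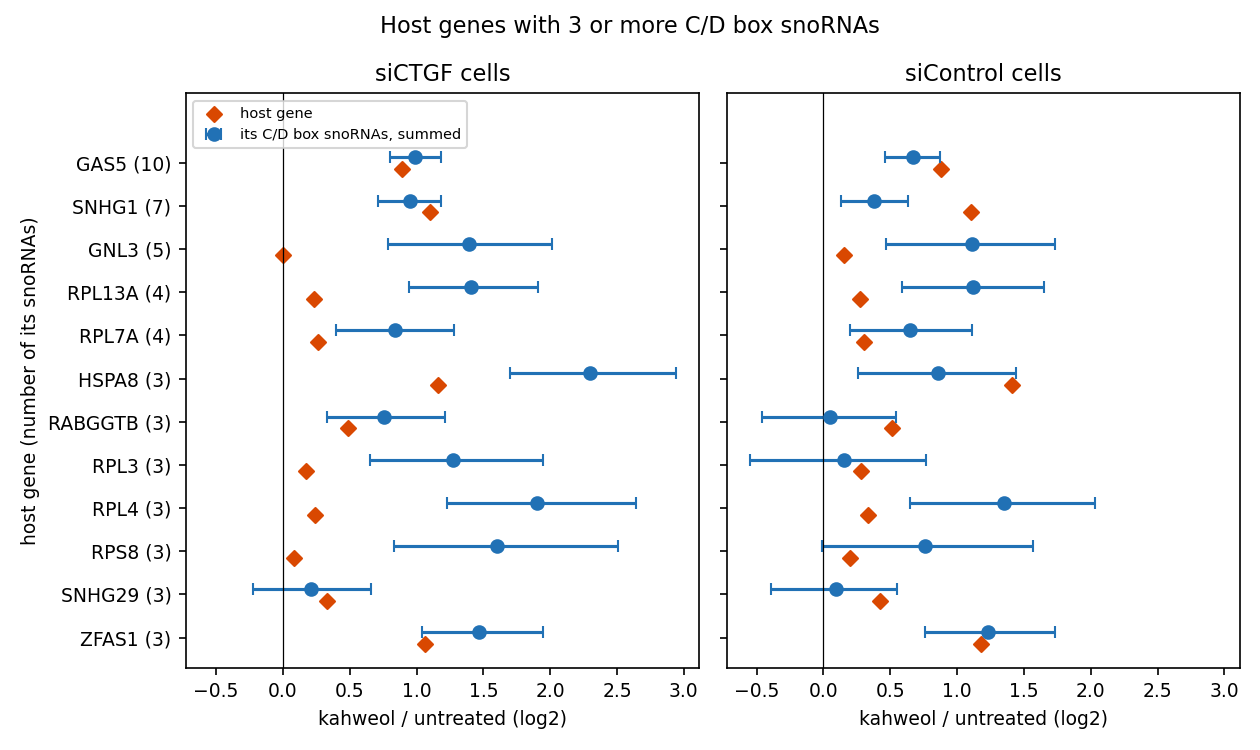
Log2 fold change of kahweol-treated against untreated cells (horizontal axis) for the 12 host genes with at least 3 C/D box snoRNAs (diamonds) and for the summed counts of their snoRNAs (circles, 95% counting intervals), in siCTGF cells (left) and siControl cells (right), 1 library per group. The snoRNA sum exceeded the host for 10 of 12 hosts in siCTGF cells and for 6 of 12 in siControl cells. The GNL3 sum holds SNORD136, a member only through the kahweol libraries.

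By kind of host, the 30 members in ribosomal protein genes had medians of 1.04 in siCTGF and 0.63 in siControl cells for kahweol. Of these 30, 28 and 22 exceeded a fold change of 1.3, and 0 and 1 were below 0.7. The 33 members in noncoding hosts had medians of 0.95 and 0.48, with 29 and 19 over 1.3 and 0 and 3 under 0.7. Of all genes, 28.4% and 28.1% exceeded 1.3, and 24.2% and 26.3% were below 0.7. By length, the 86 members of 100 nt or less had medians of 1.01 and 0.57, the 14 longer than that and up to 200 nt 0.82 and 0.84, and the 7 longer ones 0.69 and 0.67, the last counted far more deeply than the rest. The deposited count equals covered bases divided by about 101, so a snoRNA shorter than a read gets less than 1 count per read, in every library alike. SNORD genes below the threshold that had a count pointed the same way in sum, with 10.2 and 7.52 CPM in siCTGF+kahweol and siControl+kahweol cells against 4.56 and 4.88 CPM in siCTGF and siControl cells.

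Other short or unpolyadenylated RNAs moved with the C/D box snoRNAs, and their part in the result was not tested. H/ACA snoRNAs, which guide pseudouridylation, were higher with kahweol in sum by 0.94 in siCTGF and 0.69 in siControl cells over 68 genes, Cajal body RNAs by 0.94 and 0.46 over 15, and U snRNAs by 1.19 and 1.27 over 19. The RNA polymerase III transcripts 7SK, 7SL, RNase MRP RNA and RNase P RNA were higher by 0.76 and 0.61, 0.56 and 0.87, 0.60 and 0.61, and 0.62 and 1.15. Mitochondrial rRNA was higher by 1.10 and 0.27, at 6.01% and 4.33% of all counts in siCTGF+kahweol and siControl+kahweol cells against 3.11% and 3.94% in siCTGF and siControl cells. MicroRNA genes were lower in sum by -0.10 and -0.13, although their medians were 0.58 and 0.36, and histone genes, whose mRNAs are also unpolyadenylated, were lower by -1.14 and -0.76. None of the sums over nuclear RNA classes changed sign with scaling by total counts.

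**Figure D5:**
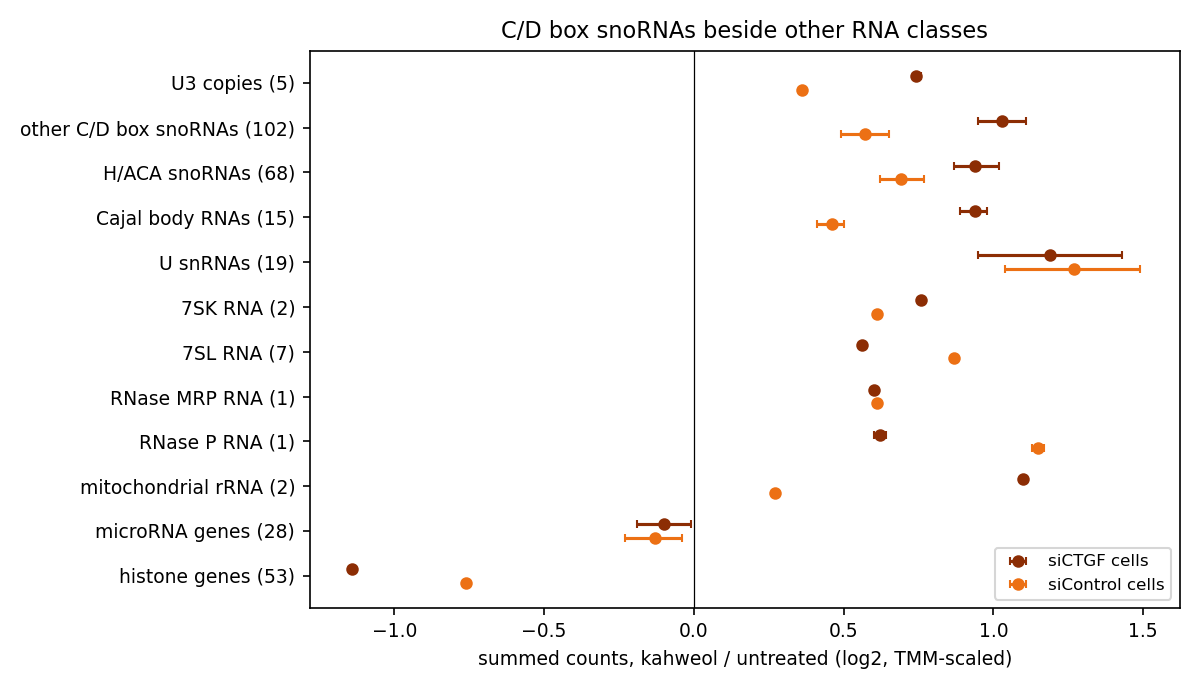
Log2 fold change of summed counts with kahweol (horizontal axis, TMM-scaled) for the U3 copies, the other C/D box snoRNAs and other RNA classes, with the number of genes in parentheses, in siCTGF and siControl cells, 1 library per group and 95% counting intervals. H/ACA snoRNAs stood at 0.94 and 0.69 beside 1.03 and 0.57 for C/D box snoRNAs other than U3, and histone genes at -1.14 and -0.76.

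Genes for proteins that bind and build C/D box snoRNAs were read in the additive fit, in which 22.9% of all genes rose with kahweol and 23.6% fell. Of the 4 core proteins 2 rose and 0 fell. NOP56 had 284 and 277 CPM in siCTGF+kahweol and siControl+kahweol cells against 238 and 217 CPM in siCTGF and siControl cells and rose (0.30, adjusted p = 0.0103), and NOP58 had 111 and 110 CPM against 88.2 and 85.2 CPM and rose (0.35, adjusted p = 0.0125). Both also host members in their introns. The methyltransferase fibrillarin (FBL) had 50.2 and 57.6 CPM against 53.2 and 41.6 CPM (0.19, adjusted p = 0.275), and SNU13, which binds the boxes, 148 and 162 CPM against 137 and 131 CPM (0.21, adjusted p = 0.0803). The list medians were 0.18 in siCTGF and 0.36 in siControl cells.

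Of 14 assembly and transport factors 10 rose with kahweol, 3 fell and 1 did not pass, beside 22.9% and 23.6% of all genes. The chaperone HSP90AA1 had 1007 and 1109 CPM in the kahweol libraries, siCTGF first, against 623 and 530 CPM (0.88, adjusted p = 0.000244), and RPAP3, a subunit of the R2TP assembly complex, 89.4 and 101 CPM against 51.8 and 53.8 CPM (0.85, adjusted p = 0.000367). Other R2TP subunits fell, RUVBL2 with 133 and 147 CPM against 241 and 237 CPM (-0.78, adjusted p = 0.000244) and PIH1D1 with 78.0 and 73.3 CPM against 117 and 121 CPM (-0.65, adjusted p = 0.000932). The list thus held changes of both signs within 1 complex.

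Of 18 processing and decay factors 4 rose, 7 fell and 7 did not pass, where the share that rose was near the 22.9% of all genes and 23.6% of all genes fell. TENT4B, which adds oligo(A) tails to snoRNA precursors, rose (0.87, adjusted p = 0.000275), as did DBR1, which opens the intron lariats from which snoRNAs are cut, with 71.3 and 72.2 CPM against 42.7 and 44.3 CPM (0.72, adjusted p = 0.000651). The exosome subunits EXOSC8 (-0.86, adjusted p = 0.000278) and EXOSC5 (-0.76, adjusted p = 0.000977) fell. Of 28 proteins of the U3 particle and early rRNA processing 13 rose, 7 fell and 8 did not pass, the share that fell being near the 23.6% of all genes. MPHOSPH10, which binds U3, had 78.1 and 79.0 CPM against 36.6 and 35.2 CPM (1.13, adjusted p = 0.000117), and BYSL rose by 0.82 (adjusted p = 0.000818), while TBL3 (-0.81, adjusted p = 0.000481) and IMP3 (-0.64, adjusted p = 0.00164) fell.

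Of 13 genes of rRNA transcription 8 rose, 2 fell and 3 did not pass, against 22.9% and 23.6% of all genes. RRN3, the factor that brings RNA polymerase I to its promoter, had 135 and 151 CPM in siCTGF+kahweol and siControl+kahweol cells against 66.9 and 68.6 CPM in siCTGF and siControl cells (1.07, adjusted p = 0.000115), and TAF1D, a subunit of the selectivity factor that also hosts 2 members, rose by 0.73 (adjusted p = 0.000551). POLR1A, the largest subunit of the polymerase (-0.38, adjusted p = 0.0105), and TAF1B (-0.31, adjusted p = 0.0386) fell. For H/ACA core and assembly proteins 2 of 6 rose, SHQ1 (0.64, adjusted p = 0.000958) and NAF1 (0.59, adjusted p = 0.0118), and none fell, again against 22.9% and 23.6%, with GAR1 at -0.24 (adjusted p = 0.509) and NHP2 at -0.20 (adjusted p = 0.106). None of the genes in these lists passed the fit for the CTGF siRNA.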

How the data were processed

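Total RNA of 4 libraries, 1 per group, was rRNA-depleted and sequenced after a stranded preparation. The submitters' processing notes name FastQC 0.11.7, Trimmomatic 0.38, Bowtie2 2.3.4.1, HISAT2 2.1.0, StringTie 2.1.3b and GRCh37.p13. The authors deposited estimated counts per gene from StringTie, given as whole numbers, beside TPM and FPKM. The deposited estimated counts equalled coverage times length divided by 101, rounded up. The deposited coverage signal was used for that check alone, and TPM and FPKM for levels per length and as alternative scales.

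Estimated counts were scaled by TMM in edgeR 4.0.16 (R 4.3.3), and log2 fold changes were taken from CPM with a prior count of 2 over genes that averaged 10 counts or more. Single libraries were compared without a test, with 95% exact binomial intervals in scipy 1.17.1. For the additive fit, the quasi-likelihood test of edgeR was run and p-values were adjusted by Benjamini-Hochberg, with a threshold of 0.05, and DESeq2 1.42.0 and limma 3.58.1 were alternatives. No replicate cultures were named and no 2 libraries shared a condition, so p-values measure no spread between replicates. They rest on the departure from the additive fit and on variation estimated across genes. The fit was also run on simulated counts with no interaction and fewer changed genes, so its error rate on these libraries was not tested. Matches to GENCODE 29 were by symbol.

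The members, gene lists and comparisons were chosen with earlier results of these data known. Named were U3, U8 and U13, the 10 members of highest mean count, the 6 highest and 6 lowest fold changes per comparison at a mean count of at least 50, members past the additive fit, members beside the count threshold, and host families. The rule took up to 10 members past the additive fit, and the others past it were named after their values were seen. Named from each list were the highest and lowest genes.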

Additional observations from a re-analysis of the deposited data

Results flagged for a closer look

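A total of 4 members were past the fold limits in opposite directions with kahweol in the 2 siRNA backgrounds, lower in siControl cells and higher in siCTGF cells. SNORD31, which lies in SNHG1, had log2 fold changes of 0.67 in siCTGF cells and -0.86 in siControl cells, from 70 and 24 counts in siCTGF+kahweol and siControl+kahweol cells against 53 and 65 in siCTGF and siControl cells. SNORD83B, in RPL3, had 0.91 and -1.23, from 40 and 12 counts against 25 and 44. SNORD48 had 0.56 and -1.07, from 19 and 8 counts against 15 and 27. SNORD84 had 1.43 and -0.92, from 25 and 8 counts against 10 and 24. In all of them siControl+kahweol was the lowest library or shared the lowest CPM. All 8 of these fold changes had a counting interval that included 0, and the difference between the backgrounds was not tested.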

How the results depend on the processing

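Among the named snoRNAs, no difference past a fold limit changed sign with total counts, DESeq2 size factors, log2(TPM + 1) or a prior count of 0.5. No alternative fit called a member lower with kahweol. Members that were not named were not checked for sign 1 by 1. The members' median for siCTGF in untreated cells, 0.03, was -0.01 on log2(TPM + 1), where 50 of 107 members lay above 0 in place of 61. The share of counts taken by the members was 0.687%, 0.600%, 0.440% and 0.510% in siCTGF+kahweol, siControl+kahweol, siCTGF and siControl cells without mitochondrial genes, 0.730, 0.634, 0.460 and 0.531 per 100 protein-coding counts, 5.41%, 4.95%, 3.83% and 4.49% of TPM, and 0.0162%, 0.0119%, 0.00881% and 0.00882% without U3. The members' median for kahweol in siCTGF cells was 0.83 with total counts, 0.72 on log2(TPM + 1), 0.77 on log2(FPKM + 1), 0.84 with no filter and 0.65 over the 7 members in no other gene, and in siControl cells 0.47, 0.41, 0.47 and 0.42 under the first 4 of these. For siCTGF in kahweol-treated cells it was 0.41 on log2(TPM + 1), 0.41 with no filter and 0.06 over the 7. Counts over a fold change of 1.3 changed mostly with the number of members counted. For kahweol in siCTGF cells, kahweol in siControl cells, siCTGF in kahweol-treated cells and siCTGF in untreated cells they were 36, 26, 23 and 6 of 38 at a mean count of at least 50, 146, 107, 107 and 45 of 206 with no filter, 5, 4, 1 and 0 of the 7 in no other gene, and 51, 27, 12 and 1 at fold limits of 2 and 0.5. Without members that share a number they were 56 and 41 of 65 for kahweol in siCTGF and siControl cells and 12 for siCTGF in untreated cells. Counts under 0.7 for kahweol in siControl cells were 13 on log2(TPM + 1), 5 on log2(FPKM + 1), 1 at a mean count of at least 50, 22 with no filter, 1 of the 7 and 2 at the fold limit of 0.5. For kahweol in siCTGF cells they were 12 with no filter and 1 on log2(TPM + 1), and for siCTGF in kahweol-treated cells 13 with no filter. For siCTGF in untreated cells they were 31 with no filter, 0 among the 38, 0 of the 7 and 1 at 0.5. Shares of all genes past the fold limits were not taken under these filters and fold limits. The counts over 1.3 and under 0.7 given for them therefore describe the members alone. On log2(TPM + 1), 27.3% and 26.6% of all genes were under 0.7 for kahweol in siControl and siCTGF cells. On log2(FPKM + 1) the share was 18.4% for kahweol in siControl cells. For kahweol, 10 members rose in DESeq2 and 12 with no filter, all of them among the 19. Of all genes tested, 19.8% and 13.7% rose under these settings. With 1 value per host the snoRNA less host median was 0.75 and 0.10 for kahweol in siCTGF and siControl cells and 0.38 for siCTGF in kahweol-treated cells. The cause of these shifts was not tested. Filters on the mean of the untreated or of the kahweol libraries alone, chosen after seeing the data, left 100 and 111 members, with every median within 0.08 and every count within 1.5 times. No paired analysis was possible because each group was 1 library, and for the same reason no replicate could be left out. At the depth of most members, 69 of which averaged under 50 counts, small differences between single libraries could not be resolved.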
